A study of Mus musculus with 6 samples.

Results

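Granzymes are serine proteases stored in the secretory granules of cytotoxic lymphocytes, and perforin is the pore-forming protein that lets them into a target cell. In the pregnant mouse the main cells that carry them are uterine natural killer cells, large granular lymphocytes of maternal origin that gather in the decidua, the lining of the uterus around the implantation site. The 10 genes described here are the granzyme genes Gzma, Gzmb, Gzmc, Gzmd, Gzme, Gzmf, Gzmg, Gzmk and Gzmm and the perforin gene Prf1. They form a gene family with its partner, chosen with earlier results of these data known, and were taken by symbol alone from the 24421 symbols of the count tables, and all 10 had a row.

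The 6 libraries were labelled as C57BL/6N whole embryo at embryonic day 9.5. There were 3 wild type libraries and 3 from homozygous knockouts of Lphn2, the gene of the adhesion receptor latrophilin-2, now named Adgrl2. The labels name no agent, no Cre line and no deleted exon, and they do not say whether a sample is 1 embryo or which litter it came from. P-values therefore reflect sample-to-sample spread only, part of which may be technical. Levels are CPM, counts relative to library size, with the size scaled by TMM, a factor that corrects for library composition. The labels name the QuantSeq kit, which reads tags near the 3' ends of polyadenylated transcripts, so that transcript length should not enter a level. Comparisons of level between genes rest on that kit name, since the files do not show where reads fell. The protocol also gives a catalogue number that may belong to another kit, which reads whole transcripts. Fold changes are log2 of knockout over wild type, and a gene was called where the edgeR quasi-likelihood test gave an adjusted p under 0.05 over all genes.

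The labelled tissue has to be read against its markers. Total counts were 18352150 to 36213611 in wild type and 14476809 to 23887717 in knockout libraries. Sox2, Pax6 and Tnnt2, which mark tissues of the embryo, summed to 43.4 to 170.0 CPM for wild type and 5.80 to 17.1 CPM for knockout libraries. The decidual genes Prl8a2, Pgr and Hand2 summed to 15389 to 29344 and 2011 to 6193 CPM, most of it Prl8a2 in every library. Pgr stood at 60.7 ± 13.4 CPM for wild type and 126 ± 48.2 CPM for knockout libraries without overlap, and Hand2 at 396 ± 111 and 572 ± 132 CPM with overlap. Trophoblast markers (Tpbpa, Prl3d1 and Prl3b1) summed to 842 to 3962 CPM for wild type and 2509 CPM for knockout replicate 1, but stood far lower in knockout replicates 2 and 3, with 32.4 CPM as the lowest. Adgrl2 itself was read at 7.56 to 15.96 CPM for wild type and 1.67 to 5.49 CPM for knockout libraries (edgeR adjusted p = 0.194). The remaining reads may lie outside the deleted part, and their source was not tested. The sample titles give a genotype per sample and none for maternal cells, such as uterine natural killer cells. In such mixed bulk samples, fewer cells of a type and less RNA per cell cannot be told apart.

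Transcripts of the granzymes Gzma to Gzmg were present in all 6 libraries, and each of these 7 genes stood higher in every knockout library than in any wild type library. The 10 genes together made up 0.119%, 0.190% and 0.0958% of all counts for wild type libraries 1, 2 and 3, and 0.307%, 0.514% and 0.402% in knockout replicates 1, 2 and 3. Of the 10 genes, 9 had enough counts to be tested, and in 8 of these all 3 knockout values lay above all 3 wild type values. Over all 13848 tested genes, 12.1% had knockout values above wild type values without overlap. No member had knockout values below wild type without overlap, as 9.39% of all genes did. None of the 9 passed the adjusted threshold (edgeR, lowest adjusted p = 0.166). An unadjusted p under 0.05 was found for 7 members, all higher, against 8.68% of all genes higher and 6.86% lower. A fitted log2 fold change above 1 was found for 8 of the 9, against 5.11% of all genes. At the adjusted threshold edgeR called 0% of all genes higher and 0.0505% lower. Limma-voom called none of the members and DESeq2 called 7 higher, against 3.49% of all genes with an adjusted p in that test, and none lower, against 2.87%. The median log2 fold change of the 9 was 1.53, and that of all tested genes was -0.04.

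**Figure D1:**
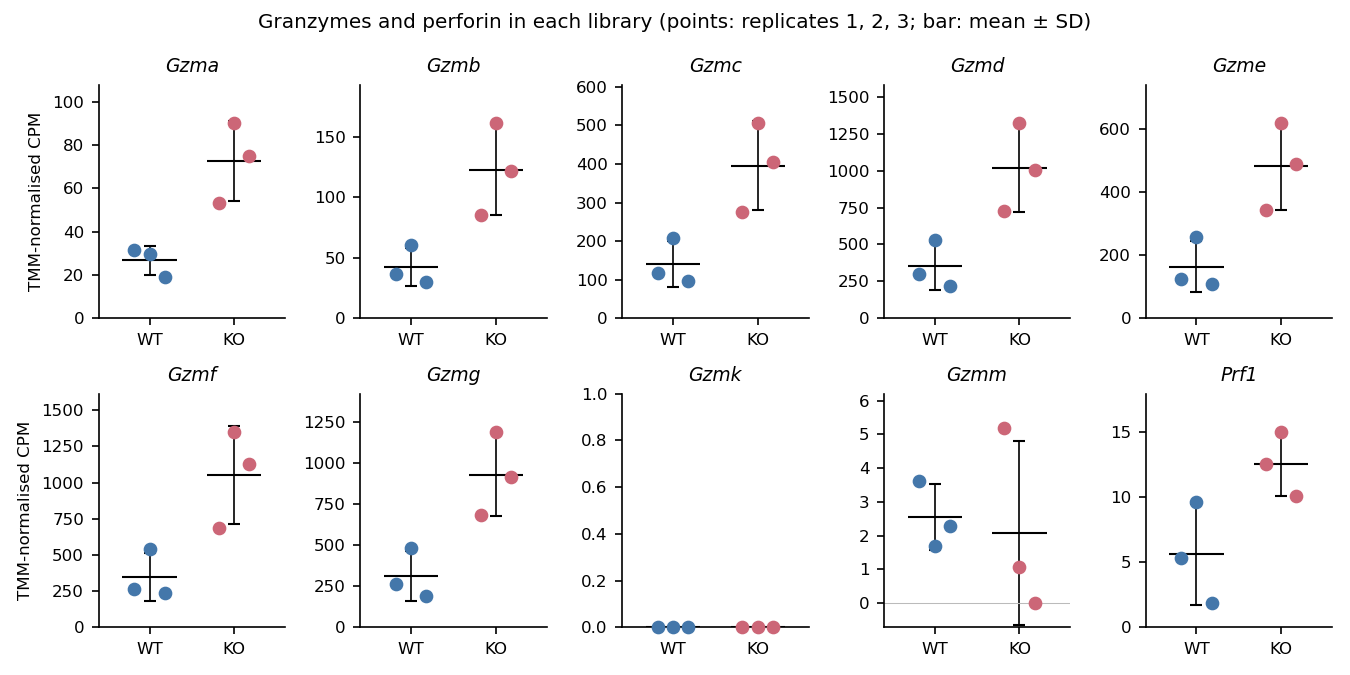
TMM-normalised CPM of the 10 genes in each library, on a linear axis per gene, with replicates 1, 2 and 3 from left to right in each group and a bar for the mean ± SD of 3 libraries. In 8 panels the knockout points lie above all wild type points, Gzmm overlaps, and Gzmk is at 0 throughout.

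Gzma encodes granzyme A, a tryptase that cuts after basic residues. The gene lies on chromosome 13 (mm10, 113093825 to 113100981, minus strand, ENSMUSG00000023132.8). Gzma was read at 31.5, 29.6 and 19.2 CPM for wild type libraries 1, 2 and 3 and at 53.4, 90.0 and 75.1 CPM for knockout replicates 1, 2 and 3. All knockout libraries were above all wild type libraries, with the lowest of them, replicate 1, nearest to wild type. The means were 26.7 ± 6.60 and 72.8 ± 18.4 CPM (SD, n = 3 each), and the log2 fold change was 1.45 ± 0.27 (SE, edgeR adjusted p = 0.166).

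Gzmb encodes granzyme B, which cuts after aspartate and activates caspases and Bid in the target cell. It lies on chromosome 14 (56258838 to 56262260, minus strand, ENSMUSG00000015437.5) at one end of a granzyme cluster. Gzmb was read at 36.7, 60.3 and 29.9 CPM for wild type and at 85.7, 161 and 121 CPM for knockout replicates 1, 2 and 3. The groups did not overlap, with wild type replicate 2 the highest of its group. The means were 42.3 ± 16.0 and 123 ± 37.6 CPM, with a log2 fold change of 1.54 ± 0.34 (SE, edgeR adjusted p = 0.166). Gzma and Gzmb were the members called without knockout replicate 1 (edgeR adjusted p = 0.0307 and 0.0424), a fit in which 1.77% of all genes were called higher.

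Gzmc, Gzmd, Gzme, Gzmf and Gzmg are rodent genes of the same cluster, known from activated cytotoxic lymphocytes and, in pregnancy, from uterine natural killer cells. The cluster holds 7 granzyme genes over 144.6 kb of chromosome 14 (mm10, 56117626 to 56262260), all on the minus strand, in the order Gzme, Gzmd, Gzmg, Gzmn, Gzmf, Gzmc and Gzmb by coordinate. Gzmn is not among the 10 genes and is described with them because of its place. Each of these genes has 5 exons in its annotated transcript, or 6 in Gzmn.

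Their promoters are shown because Gzmc to Gzmg, members of one gene cluster, have upstream sequence in common, a run of which is absent from the windows of Gzmn and Gzmb. The 200 bases before each RefSeq start site are given 5′ to 3′ on the gene's strand (RefSeq, GRCm38.p6), at chr14:56120626-56120825 for Gzme, chr14:56132594-56132793 for Gzmd, chr14:56159580-56159779 for Gzmg, chr14:56211408-56211607 for Gzmf, chr14:56234658-56234857 for Gzmc and chr14:56262335-56262534 for Gzmb. Capitals mark the longest run shared by the Gzmc to Gzmg windows, and matches on either strand to TGTGGT (bound by Runt factors such as Runx3), TCACAC (the core bound by T-box factors, the family of Eomes and Tbx21) and TGACGTCA (the cyclic AMP response element).
Gzmc: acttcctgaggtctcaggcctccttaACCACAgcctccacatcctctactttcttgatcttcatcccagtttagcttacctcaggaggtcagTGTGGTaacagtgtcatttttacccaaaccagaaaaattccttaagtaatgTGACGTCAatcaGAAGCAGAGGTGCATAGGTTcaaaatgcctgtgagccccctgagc
Gzmd: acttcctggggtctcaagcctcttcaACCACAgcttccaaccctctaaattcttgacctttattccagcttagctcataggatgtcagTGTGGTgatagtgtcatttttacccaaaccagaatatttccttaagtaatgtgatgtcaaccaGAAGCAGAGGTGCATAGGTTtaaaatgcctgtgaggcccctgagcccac
Gzme: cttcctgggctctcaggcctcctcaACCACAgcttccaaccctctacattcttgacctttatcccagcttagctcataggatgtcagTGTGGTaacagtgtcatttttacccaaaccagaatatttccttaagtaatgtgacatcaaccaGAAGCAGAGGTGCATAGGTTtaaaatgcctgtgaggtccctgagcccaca
Gzmf: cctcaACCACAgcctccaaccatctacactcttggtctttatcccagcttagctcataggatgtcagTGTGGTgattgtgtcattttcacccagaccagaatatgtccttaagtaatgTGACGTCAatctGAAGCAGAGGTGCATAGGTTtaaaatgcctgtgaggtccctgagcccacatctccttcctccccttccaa
Gzmg: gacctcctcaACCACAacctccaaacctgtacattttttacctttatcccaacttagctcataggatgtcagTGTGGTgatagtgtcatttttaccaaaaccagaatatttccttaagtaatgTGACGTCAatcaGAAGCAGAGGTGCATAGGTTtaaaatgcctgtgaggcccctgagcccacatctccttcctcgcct
Gzmb: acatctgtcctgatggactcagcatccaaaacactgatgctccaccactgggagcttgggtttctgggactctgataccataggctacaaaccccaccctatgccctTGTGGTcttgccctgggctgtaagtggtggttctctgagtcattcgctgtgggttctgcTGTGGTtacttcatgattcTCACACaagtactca

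The run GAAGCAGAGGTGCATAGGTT, 20 bases long, was present in the windows of Gzmc, Gzmd, Gzme, Gzmf and Gzmg and in no other of 32851 promoter windows of the table. Between these 5 genes the full 300-base windows, which reach 50 bases past the start site, were 87.4% to 93.98% identical over aligned bases, with Gzmd and Gzme the closest pair. The Gzmb window was 67.3% to 77.0% identical to theirs in alignments that leave gaps out. The Gzmn window was 68.5% to 74.2% identical to those of Gzmc to Gzmg, held no TGTGGT and lacked the run. The part of these sequences in the counts was not tested. All 10 genes had a window, and Gzmm had 2. TGTGGT was found in 9 of these 11 windows, against 16.8% of all windows, and each of the 5 related genes and Gzmb had 2 matches. TGACGTCA was found in 3 of the 11 (Gzmc, Gzmf and Gzmg), against 1.79% of all windows. TCACAC was found in 3 of the 11, including Gzmb, against 14.5%. Of the other motifs searched on both strands, TGANTCA (AP-1) was in 1 window, TTCNNNGAA (STAT) in 2, TATAAA in 0 and TTTAAA in 5, against 7.81%, 8.30%, 13.6% and 13.2% of all windows. The 5 related windows are near copies of each other and do not count as separate matches, and a match of letters does not show that a factor binds.

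Gzmd was read at 302, 533 and 221 CPM for wild type and at 729, 1318 and 1003 CPM for knockout replicates 1, 2 and 3. All knockout values were above the wild type values, and wild type replicate 2 came nearest to knockout replicate 1. The means were 352 ± 162 and 1017 ± 295 CPM, with a log2 fold change of 1.53 ± 0.37 (SE, edgeR adjusted p = 0.173).

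Gzmf, which had the highest mean level of the 10 genes, was read at 267, 542 and 237 CPM for wild type and at 685, 1346 and 1129 CPM for knockout replicates 1, 2 and 3. Its log2 fold change was 1.59 ± 0.39 (SE, edgeR adjusted p = 0.173). By mean level over the 6 libraries it ranked 163rd of 13848 tested genes, and Gzmd and Gzmg ranked 174th and 200th. These 3 granzyme genes were thus within the most abundant transcripts of samples labelled as embryo.

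Gzmg was read at 261, 483 and 191 CPM for wild type and at 687, 1186 and 917 CPM for knockout replicates 1, 2 and 3, with a log2 fold change of 1.58 ± 0.38 (SE). Gzme was read at 126, 257 and 108 CPM and at 342, 617 and 489 CPM (log2 fold change 1.56 ± 0.38). Gzmc was read at 118, 209 and 95.9 CPM and at 275, 505 and 406 CPM (1.49 ± 0.36). The groups did not overlap in any of the 3, and the edgeR adjusted p was 0.173 for Gzmg and Gzme and 0.172 for Gzmc.

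Gzmn, the remaining granzyme gene of the cluster, whose counts were all multiples of 2, was read at 284, 545 and 215 CPM for wild type and at 859.9, 1469 and 1048 CPM for knockout replicates 1, 2 and 3. Its log2 fold change of 1.69 ± 0.39 (SE, edgeR adjusted p = 0.168) lay above those of the 7 granzymes Gzma to Gzmg, which spanned 1.45 to 1.59. Differences between these genes in fold change were smaller than the standard error of each.

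The 6 paralogs kept nearly the same proportions in every library. Of their summed CPM, Gzmd took 20.1% to 22.2%, Gzmf 19.1% to 22.6%, Gzmg 17.8% to 19.2% and Gzmn 20.2% to 24.0% over the 6 libraries. Gzme took 9.30% to 10.1% and Gzmc 7.69% to 8.98%. The summed level of Gzmc to Gzmg was 1317 ± 623 CPM for wild type and 3878 ± 1129 CPM for knockout libraries. Tested as 1 summed row, the 5 genes had a log2 fold change of 1.55 (edgeR adjusted p = 0.170).

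**Figure D2:**
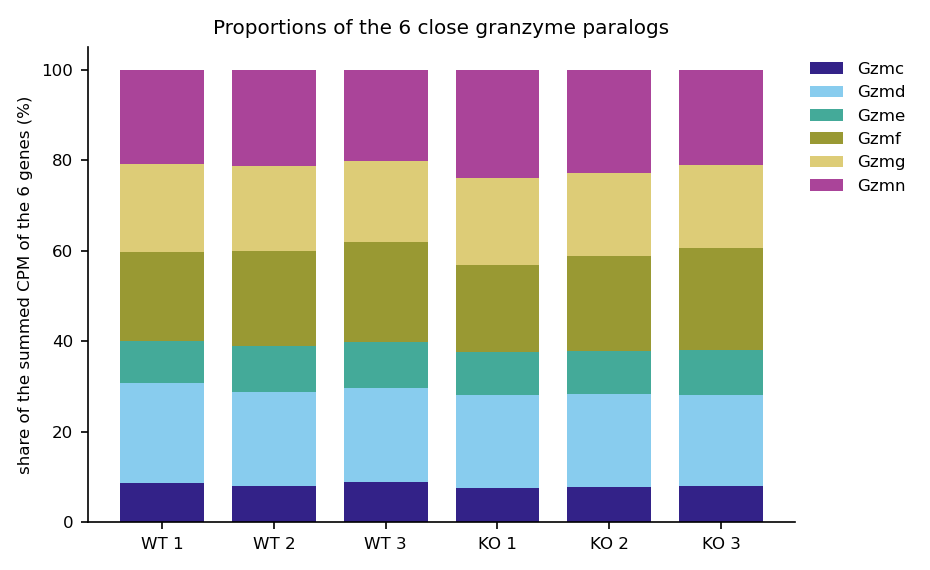
Share of each of the 6 paralogs in their summed TMM-normalised CPM, in percent, as 1 stacked bar per library. The divisions stand at similar heights in all 6 bars, with Gzmc at 7.69% to 8.98% and Gzmn at 20.2% to 24.0%.

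Whether the paralogs can be told apart by their tags was examined on their transcripts. Over the last 300 bases, where the tags of the named kit would fall, Gzmd and Gzme were 95.4% identical, Gzmf and Gzmg 91.8%, and Gzmn 88.6% to its closest relative Gzmf. Of all 50-base stretches in those last 300 bases, 25.1% in Gzmg, 21.5% in Gzmn, 12.7% in Gzmf, 11.6% in Gzme and 9.96% in Gzmd occur letter for letter in another granzyme. None did in Gzmc, Gzmb, Gzma or Prf1. Over whole transcripts the share was 21.9% in Gzmd, 20.6% in Gzme, 19.8% in Gzmg, 7.36% in Gzmf, 5.75% in Gzmn and 4.14% in Gzmc. Gzmc and Gzmb were 75.7% identical to each other over the last 300 bases, within the 69.0% to 77.2% that Prf1, which is no granzyme, gave against the granzymes in the same gap-free measure. How the authors' counting treated reads that match several genes is not given in the sources used here, so the separate values of Gzmd, Gzme, Gzmf, Gzmg and Gzmn are uncertain as to copy. The part of shared reads in their constant proportions was not tested. Gzmc, with no such stretch in its last 300 bases, had a log2 fold change of 1.49 ± 0.36 (SE). Gzmd, Gzme, Gzmf, Gzmg and Gzmn had 1.53 to 1.69, above that of Gzmc by less than its standard error.

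The perforin gene Prf1 (chromosome 10, 61297833 to 61304680, plus strand, ENSMUSG00000037202.6) was read far below Gzma to Gzmg, and above Gzmm and Gzmk. Prf1 stood at 5.33, 9.63 and 1.91 CPM for wild type and at 12.5, 14.9 and 10.1 CPM for knockout replicates 1, 2 and 3. The groups did not overlap, but wild type replicate 2 came within 1 CPM of knockout replicate 3. The means were 5.62 ± 3.87 and 12.5 ± 2.44 CPM, and the log2 fold change of 1.16 ± 0.55 (SE) had an unadjusted p of 0.0690 and an adjusted p of 0.362 (edgeR). That value rested on single wild type libraries: it was 1.80 without wild type replicate 2 and 0.74 without wild type replicate 3 (edgeR adjusted p = 0.146 and 0.487). Prf1 also missed the threshold in DESeq2 (adjusted p = 0.257). Its raw counts were 147, 158 and 73 in wild type and 320, 224 and 141 in knockout replicates 1, 2 and 3.

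Gzmm, which encodes a granzyme that cuts after methionine and is known from natural killer cells, did not follow the others. It lies on chromosome 10 (79689020 to 79695261, plus strand, ENSMUSG00000054206.2). Gzmm was read at 3.62, 1.71 and 2.30 CPM for wild type and at 5.18, 1.07 and 0 CPM for knockout replicates 1, 2 and 3. Knockout replicate 1 was the highest of all libraries and knockout replicates 2 and 3 were the lowest, so the groups overlapped. Its log2 fold change was -0.27 ± 1.22 (SE, edgeR adjusted p = 0.934), at -2.23 without knockout replicate 1 and at 1.04 with that replicate alone. The 6 counts (100, 28, 88, 132, 16 and 0) were all multiples of 4, so their counting error is larger than the counts show. Replicates 2 and 3 are the knockout libraries with low trophoblast markers, and the part of this in the Gzmm values was not tested.

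Gzmk, a tryptase typical of memory T cells, had 0 counts in all 6 libraries. At 3 counts, the limit that a count of 0 allows was 0.0784 to 0.183 CPM for wild type and 0.118 to 0.214 CPM for knockout libraries, for counting error only. Of the 24421 symbols, 5633 had 0 counts in all 6 libraries, among them Vamp7 of the granule release list. The part of annotation or counting in such zeros was not tested. The gene lies near Gzma on chromosome 13 (113171608 to 113225908, minus strand, ENSMUSG00000042385.14).

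The libraries stood in the same order for 6 of the 9 tested members, Gzmb to Gzmg: knockout replicates 2, 3 and 1, then wild type replicates 2, 1 and 3. Gzma had wild type replicates 1 and 2 exchanged, at values close to each other, and Prf1 had knockout replicates 1 and 3 exchanged. Knockout replicate 1, the library nearest to wild type, was above the wild type mean by 1.03 (Gzma) to 1.25 (Gzmg) on the log2 scale in the granzymes Gzma to Gzmg. Taken alone against wild type, with its spread assumed to be like that of the wild type group, it gave log2 fold changes of 0.98 (Gzmc) to 1.16 (Gzmg) for these 7 genes, and none was called (edgeR adjusted p = 0.9995). The sample descriptions carry a code whose first number is shared by all libraries but wild type replicate 1, and its meaning is not stated. Within the 5 libraries that share it, the log2 fold changes of the same 7 genes were 1.37 (Gzmc) to 1.58 (Gzma), and that of Prf1 was 1.12.

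**Figure D3:**
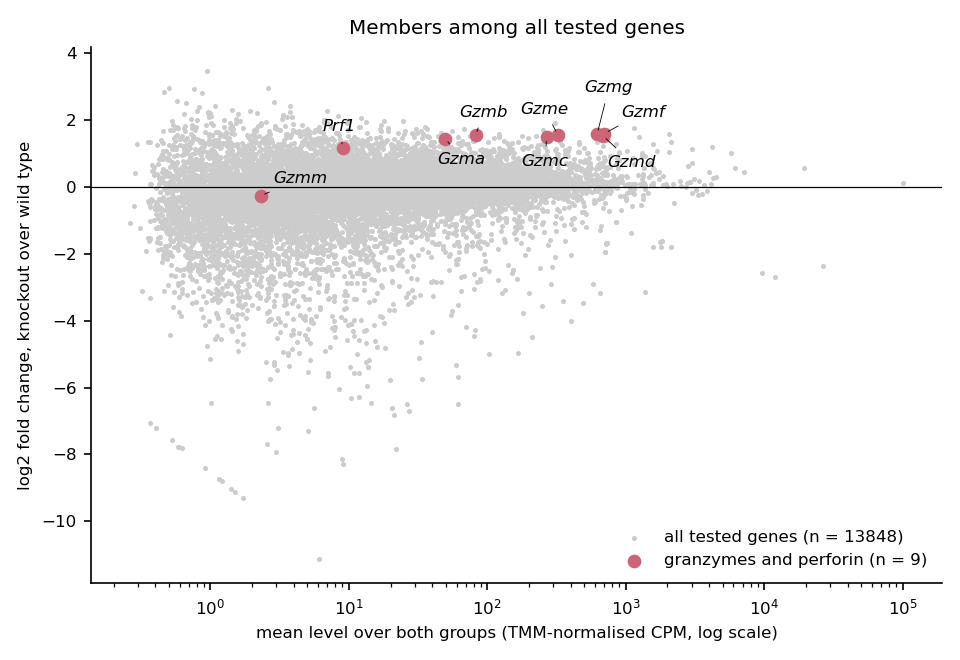
Log2 fold change of knockout over wild type against the mean level over both groups (CPM, log axis) for 13848 tested genes in grey and 9 members in red. Gzma to Gzmg lie on the upper edge of the cloud at 1.45 to 1.59. Prf1 lies at 1.16, at a level with 40.5% of tested genes below it, and Gzmm lies below 0.

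The 5 other genes whose levels were most like those of Gzmf over the 6 libraries were Shisa5, Tagln2, Plek, Sipa1l1 and Mad2l2, with Pearson r of 0.996 to 0.998 in log2 CPM. The points are the same 6 libraries, fall into 2 groups and share library composition, so r is a description only. Plek, pleckstrin of blood cells, stood at 5.93 ± 2.30 CPM for wild type and 14.01 ± 3.32 CPM for knockout libraries. Tagln2, an actin-binding protein, stood at 798 ± 232 and 1467 ± 299.8 CPM.

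Genes that build, arm and release cytotoxic granules gave a mixed picture. In the lists that follow, edgeR called 0 genes over the 6 libraries, and the counts at an unadjusted p under 0.05 and by DESeq2 stand with each list. They are to be read against all tested genes, of which 12.1% lay above and 9.39% below wild type without overlap. At an unadjusted p under 0.05 (edgeR), 8.68% of all genes were higher and 6.86% lower, and DESeq2 called 3.49% higher and 2.87% lower. Of the 8 genes of the granule matrix and granzyme activation, all were tested, 3 were higher at an unadjusted p, DESeq2 called 2 higher, 2 had knockout values above wild type without overlap, and the median log2 fold change was 0.40. Nkg7, a granule membrane protein of cytotoxic lymphocytes, stood at 7.57, 10.1 and 4.49 CPM for wild type and 15.6, 34.6 and 29.8 CPM for knockout libraries (log2 fold change 1.86 ± 0.41 SE, edgeR adjusted p = 0.166). Cst7, cystatin F, which restrains granule cathepsins, stood at 19.1, 25.9 and 12.3 and at 40.0, 66.4 and 56.3 CPM (1.51 ± 0.32 SE). These were the 2 genes without overlap, and edgeR called both without knockout replicate 1 (adjusted p = 0.0345 and 0.0428). In that fit 1.77% of all genes were called higher. Srgn, serglycin, the proteoglycan on which granzymes are packed, stood at 239 ± 102 and 509 ± 167 CPM (1.09) with overlapping groups. Ctsc, the cathepsin that activates progranzymes, stood at 12.9 ± 5.92 and 16.7 ± 1.38 CPM (0.37), also overlapping.

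Of 11 genes of granule release, 9 were tested, with a median log2 fold change of 0.06, 2 higher at an unadjusted p, 0 called by DESeq2 and 1 without overlap. That last gene was Snap23, a membrane fusion protein, at 121 ± 2.14 CPM for wild type and 158 ± 20.4 CPM for knockout libraries (0.39, edgeR adjusted p = 0.306). Rab27a, which docks granules at the membrane, stood at 19.7 ± 7.36 and 32.2 ± 6.64 CPM (0.72) with overlap. These genes serve secretion in many cell types.

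The natural inhibitors of granzymes divided by gene. Serpinb9, the inhibitor of granzyme B that protects cytotoxic cells from their own granules, stood at 19.8, 27.4 and 17.0 CPM for wild type and 30.2, 31.3 and 34.9 CPM for knockout libraries (0.59 ± 0.22 SE, edgeR adjusted p = 0.275). Serpinb6b, a relative, stood at 47.2 ± 12.0 and 87.9 ± 16.6 CPM (0.90, adjusted p = 0.185), and Serpinb9b at 207 ± 82.7 and 342 ± 37.9 CPM (0.72, adjusted p = 0.343). These 3 had no overlap, and Serpinb6a, at 341 ± 80.4 and 589 ± 173 CPM (0.79, edgeR adjusted p = 0.261), overlapped. The other 5 of the 9 genes, Serpinb9c, Serpinb9d, Serpinb9e, Serpinb9f and Serpinb9g, had log2 fold changes of -1.29, -1.18, -1.74, -1.38 and -1.54. They were named after their values were seen. They are close paralogs and uncertain as to copy. In knockout replicate 1 they stood at 11.0 to 19.5 CPM and in replicates 2 and 3 at 0.143 to 1.73 CPM, the split seen for trophoblast markers. Of the 9 genes, 3 were higher at an unadjusted p, DESeq2 called 1 higher (Serpinb6b), and the median was -1.18. Without knockout replicate 1, edgeR called Serpinb9d, Serpinb9e, Serpinb9f and Serpinb9g lower, 4 of the 9, against 3.27% of all genes in that fit.

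**Figure D4:**
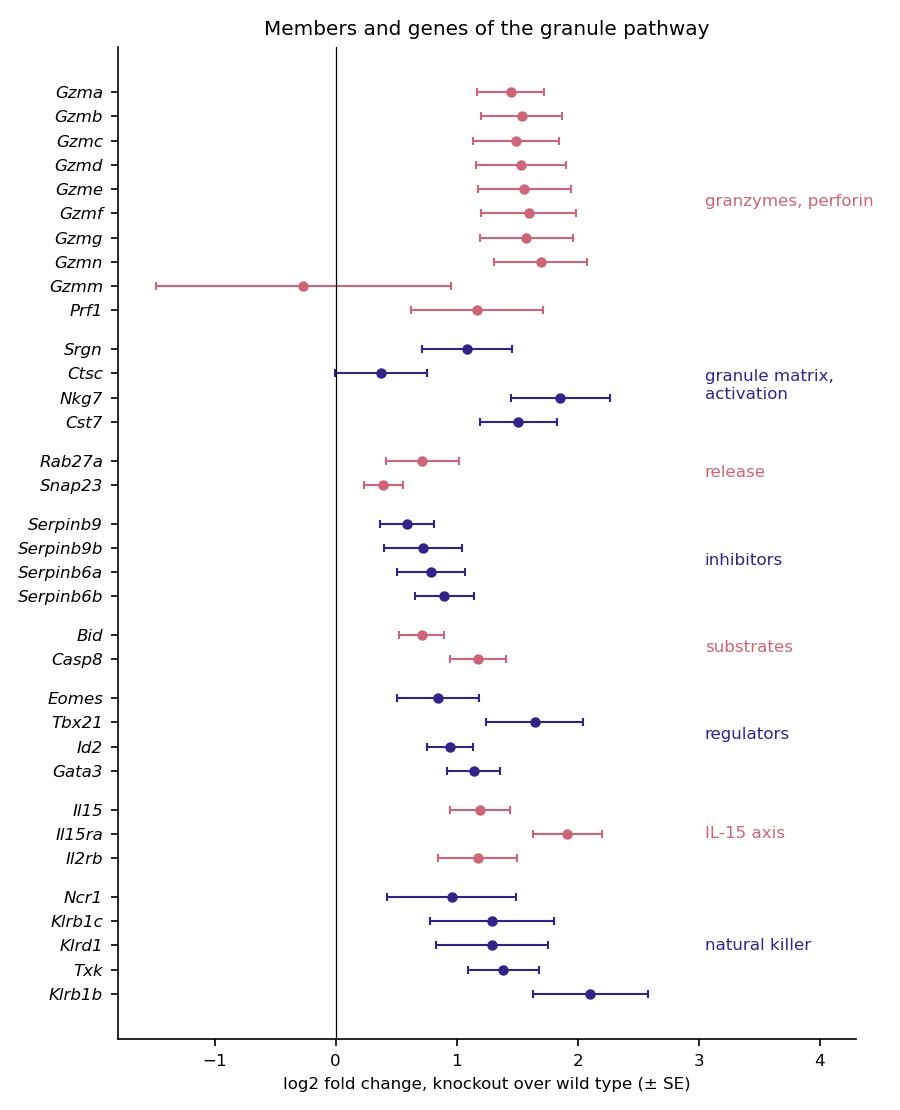
Log2 fold change of knockout over wild type with its standard error (bars) for the tested members, Gzmn and named genes of the granule pathway, by role. The granzymes Gzma to Gzmg lie at 1.45 to 1.59, Gzmm has the widest bar and spans 0, and the 4 inhibitors shown lie at 0.59 to 0.90. Beyond the members, only part of each list is shown. The 5 inhibitors left out had negative log2 fold changes. So had 10 of the 13 substrates, of which only Bid and Casp8 are shown.

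Among 13 substrates and partners of granzymes in cell death, the median log2 fold change was -0.20, with 2 genes above and 2 below wild type without overlap, 2 higher and 1 lower at an unadjusted p, and 2 called higher by DESeq2, Bid and Casp8. Bid, cut by granzyme B to open mitochondria, stood at 11.6, 11.0 and 11.5 CPM for wild type and 17.8, 19.6 and 18.5 CPM for knockout libraries (0.71 ± 0.19 SE, edgeR adjusted p = 0.183). Casp8, an initiator caspase, stood at 9.21 ± 1.41 and 20.8 ± 3.21 CPM (1.18, adjusted p = 0.166). The spread within each group was small for both genes.

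Of 14 transcription factors that act on granule genes or on the lineage, all were tested, 8 were higher at an unadjusted p, DESeq2 called 3 higher (Gata3, Id2 and Tbx21), 7 had knockout values above wild type without overlap and 0 below, and the median log2 fold change was 0.67. Tbx21 (T-bet), which drives cytotoxic genes, stood at 2.64, 2.01 and 1.41 CPM for wild type and 4.43, 6.93 and 7.63 CPM for knockout libraries (1.64 ± 0.40 SE, edgeR adjusted p = 0.173). Eomes, its relative, stood at 16.8, 25.0 and 11.6 and at 25.3, 42.9 and 27.7 CPM (0.85, adjusted p = 0.301), with wild type replicate 2 just under knockout replicate 1. Gata3 stood at 68.8 ± 13.4 and 152 ± 27.0 CPM (1.14) and Id2 at 182 ± 17.5 and 351 ± 58.8 CPM (0.95), both with adjusted p = 0.166. These last genes are also used by other tissues.

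Interleukin-15 is the cytokine on which natural killer cells depend. Of 10 genes of this axis, 7 were tested, 5 were higher at an unadjusted p, DESeq2 called 4 higher (Il15, Il15ra, Il2rb and Il2rg), and 5 had knockout values above wild type without overlap, with a median log2 fold change of 1.04. Il15 stood at 6.23, 7.07 and 5.33 CPM for wild type and 12.4, 13.7 and 16.4 CPM for knockout libraries (1.19 ± 0.25 SE, edgeR adjusted p = 0.166). Il15ra, which presents the cytokine, stood at 176, 119.9 and 92.4 and at 419, 601 and 446 CPM (1.92 ± 0.29 SE, adjusted p = 0.146). Il2rb, the signalling chain on the responding cell, stood at 121 ± 48.5 and 272 ± 43.1 CPM (1.17, adjusted p = 0.191).

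Markers of natural killer cells mostly had higher means in knockout libraries too. Of 31 identity genes, 27 were tested, 26 of them had a positive log2 fold change, 13 had no overlap with all knockout values above, and the median was 1.23. Of these genes 13 were higher at an unadjusted p and DESeq2 called 8 higher. Klrb1c (NK1.1) stood at 10.9, 8.90 and 2.82 CPM for wild type and 14.1, 26.0 and 15.1 CPM for knockout libraries, and Klrd1 (CD94) at 2.90, 4.39 and 2.14 and at 4.39, 11.6 and 7.06 CPM. Ncr1 (NKp46) stood at 2.28, 0.975 and 1.49 and at 1.84, 4.47 and 2.99 CPM, overlapping. Txk, a kinase of natural killer and T cells, stood at 44.7 ± 14.3 and 117 ± 27.8 CPM (1.38 ± 0.29 SE, edgeR adjusted p = 0.166), and Klrb1b at 1.45 ± 0.515 and 6.26 ± 2.33 CPM (2.10, adjusted p = 0.167). Ifng, which uterine natural killer cells are known to secrete, had 0 counts in all 6 libraries.

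The granzymes were also set against these markers as ratios within each library. The summed CPM of Gzmc to Gzmg and Gzmn over that of the 31 identity genes was 3.07, 3.66 and 3.45 in wild type and 3.68, 3.74 and 3.75 in knockout replicates 1, 2 and 3, as log2 ratios. Each knockout ratio was above each wild type ratio, by a margin as small as that between knockout replicate 1 and wild type replicate 2. Gzmb over the same sum was -2.14, -1.75 and -1.70 in wild type and -1.70, -1.58 and -1.62 in knockout libraries. Gzma over that sum was -2.36, -2.78 and -2.34 and -2.38, -2.42 and -2.31. The ratios of the groups differed by 0.33, 0.23 and 0.12, against 1.45 to 1.59 for the fold changes of Gzma to Gzmg. An exact permutation test of 3 against 3 libraries, which cannot go below p = 0.1, gave p = 0.1, 0.1 and 0.7 for these ratios. That sum is led by Txk, Klrg1 and Fcer1g, which are not all specific to natural killer cells. Over Ncr1 alone, the log2 ratio of the 6 paralogs was 9.22, 11.4 and 9.49 in wild type and 10.9, 10.5 and 10.7 in knockout libraries, overlapping and with a difference of 0.68. Over Klrd1 alone the difference was 0.41, also with overlap. The same permutation test gave p = 0.4 over Ncr1 and 0.2 over Klrd1.

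Other cells that carry granzymes had little signal. The T cell markers Cd3d, Cd3e, Cd3g, Cd8a and Cd4 summed to 0.145 to 0.305 CPM for wild type and 0.392 to 0.499 CPM for knockout libraries, with Cd8a at 0 in all 6. Over the whole T cell list of 12 genes, 4 were tested, 2 with knockout values above and 1 below without overlap, the same counts at an unadjusted p, and 0 called by DESeq2. Cd247, also used by natural killer cells, stood at 5.33 ± 1.13 and 12.9 ± 5.42 CPM, and Bcl11b, also used by neurons and skin, at 2.83, 2.38 and 193 CPM for wild type and 0.706 to 2.14 CPM for knockout libraries. The mast cell markers Cpa3, Tpsb2, Cma1 and Mcpt4 summed to at most 1.59 CPM in any library, and Tpsab1, Ms4a2 and Fcer1a were at 0 in all 6. Of the 9 genes of the mast cell list, 3 were tested and 1 was higher at an unadjusted p, without overlap and by DESeq2. It was Kit, also used by other cells, at 61.8 ± 11.0 and 179 ± 60.0 CPM (1.54, edgeR adjusted p = 0.166), while Hdc stood at 3.76 ± 2.18 and 2.85 ± 1.28 CPM.

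Next to the granzyme cluster lie genes of mast cell and myeloid proteases. Of 9 such neighbours, Gzmn included, 3 were tested, and all 3 had knockout values above wild type without overlap, an unadjusted p under 0.05 and a DESeq2 call. Ctsg, cathepsin G, stood at 10.8, 28.0 and 9.04 CPM for wild type and 33.4, 78.0 and 53.2 CPM for knockout libraries (1.79 ± 0.50 SE, edgeR adjusted p = 0.194). Mcpt8, a protease of basophils, stood at 1.59, 3.41 and 1.02 and at 6.67, 9.47 and 5.49 CPM (1.86 ± 0.52 SE, adjusted p = 0.191). Cma2, Mcpt2 and Mcpt9 were at 0 in all 6 libraries. Of the 14 macrophage and neutrophil genes, 10 were tested, 1 with knockout values above and 3 below without overlap, 1 higher and 4 lower at an unadjusted p, and 1 higher and 2 lower by DESeq2. S100a8, a calgranulin known from neutrophils, stood at 1033 ± 336 and 3102 ± 872 CPM (1.59). S100a9, the other calgranulin of the list, went the other way, at 8.82 ± 5.54 and 2.77 ± 1.30 CPM (-1.68). Mpo, of early myeloid cells, stood at 4.76 ± 4.11 and 0.356 ± 0.281 CPM (-3.78).

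**Figure D5:**
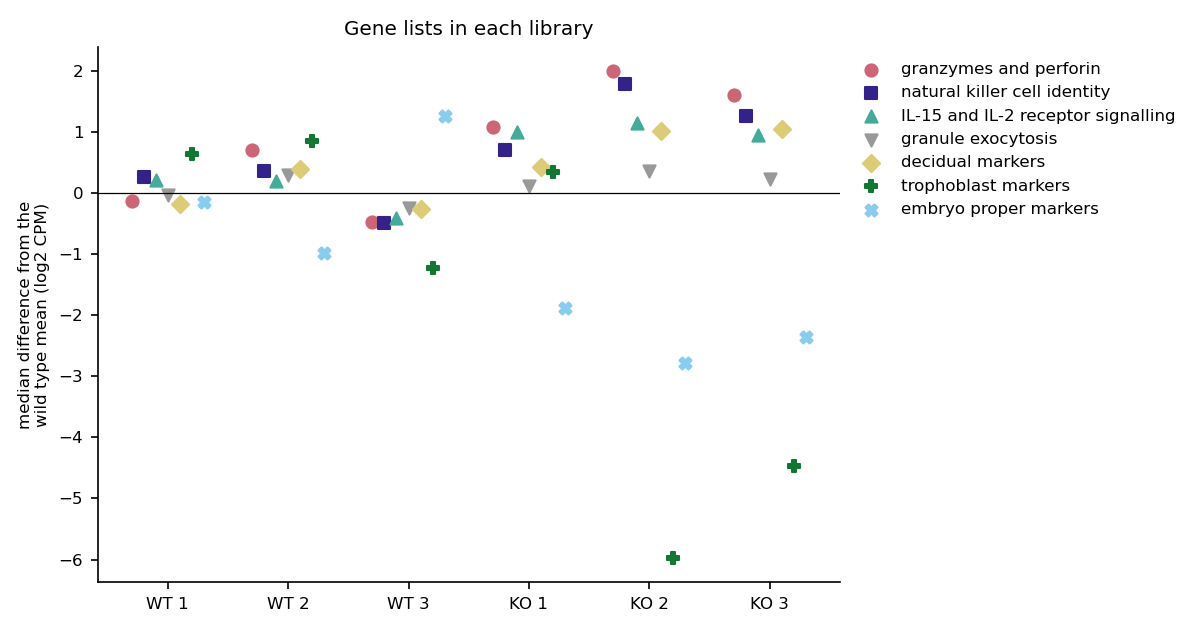
Median difference of each gene list from its wild type mean (log2 CPM, tested genes) in each library. Granzymes and perforin lie at -0.47 to 0.70 in wild type and 1.08 to 1.99 in knockout libraries, natural killer genes at -0.49 to 0.37 and 0.70 to 1.78, and trophoblast genes drop to -5.98 and -4.46 in knockout replicates 2 and 3.

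Marker genes of the surrounding and embryonic tissues also had unequal levels. Over 13 decidual genes the median log2 fold change was 0.89, 7 genes lay above and 2 below wild type without overlap, the same counts at an unadjusted p, and DESeq2 called 6 higher and 2 lower. Esr1, the oestrogen receptor of the uterus, stood at 92.3 ± 14.6 and 265 ± 86.4 CPM (1.52), while Prl8a2, the decidual prolactin, stood at 20572 ± 7235 and 3171 ± 2041 CPM (-2.70), both with edgeR adjusted p = 0.166. Of 12 tested trophoblast genes all had a negative log2 fold change (median -1.41), 0 at an unadjusted p or by DESeq2. Without knockout replicate 1, edgeR called 8 of 13 tested trophoblast genes lower, against 3.27% of all genes in that fit. Over all libraries, Tpbpa stood at 138 ± 89.5 and 22.4 ± 36.7 CPM, Prl7a2 at 1.15 ± 0.509 and 0.260 ± 0.228 CPM and Prl3b1 at 51.8 ± 44.3 and 4.59 ± 7.77 CPM. Of 7 tested embryo genes all were negative (median -2.82), 5 at an unadjusted p and 4 by DESeq2, with Pax6 at 13.4 ± 6.99 and 2.76 ± 0.532 CPM and Myl4 at 6.17 ± 4.60 and 0.809 ± 0.469 CPM. Tissue makeup and granzyme RNA per cell cannot be told apart here. In knockout replicate 1 the granzyme and perforin median lay at 1.08 above the wild type mean, the trophoblast median at 0.35 and the embryo median at -1.88, with Prl8a2 at 2900.0 CPM.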

How the data were processed

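Libraries were made with the Lexogen QuantSeq kit from 500 ng of Trizol-extracted RNA, per the labels' protocols. The authors deposited 1 table per sample of whole-number counts per gene symbol, without normalization. The submitters' processing notes name Bowtie2, edgeR and mm10. The sources used here do not give versions, annotation, counting program, strand or the handling of multiply mapped reads.

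Genes were kept with filterByExpr (minimum count 10), scaled by TMM and tested with the quasi-likelihood test of edgeR 4.0.16 in R 4.3.3, knockout against wild type with no covariate, with Benjamini-Hochberg adjustment over 13848 genes. All 6 libraries entered. CPM are relative to the effective library size, and log2 CPM used a prior count of 2. An exact two-sided permutation test of 3 against 3 libraries cannot go below p = 0.1 and was reached by each of the 8 members without overlap. No pair of libraries agreed within sampling noise. Positions are from GENCODE M21, and promoter windows from the RefSeq table. Alternatives were other scalings, filters, DESeq2 1.42.0, limma-voom 3.58.1, a replicate block, summed paralogs, the common divisor removed, 1 symbol per set of identical counts and each library left out. Figures used matplotlib 3.10.9.

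The members and gene lists were chosen with earlier results of these data known. The rule for names took all 10 members, the 2 genes with the smallest p of each list (none passed the threshold), fixed markers of natural killer, T, mast, decidual and trophoblast cells, Eomes, Tbx21, Il15, Ctsc, Srgn, Serpinb9, Serpinb9b and Gzmn, and the 5 genes most like the member with the highest mean. Other genes were named for their place or after their values were seen.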

Additional observations from a re-analysis of the deposited data

How the results depend on the processing

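The 8 members Gzma to Gzmg and Prf1 had a positive log2 fold change under all 19 alternatives that gave them a value, within 0.74 to 2.07. The last 2 alternatives, knockout replicate 1 alone and the sum with Gzmn, were chosen after seeing the data. The count of members higher, 0 with edgeR, was 7 with DESeq2 and 0 to 2 with 1 library left out, the 2 being without knockout replicate 1. It was 0 under the other alternatives, and no member was called lower under any. Over all genes, 0 were higher and 7 lower with edgeR, 470 higher and 387 lower with DESeq2, and with 1 library left out 0 to 252 were higher and 0 to 466 lower. None were lower with 1 symbol kept per set of identical counts, or with knockout replicate 1 alone (0). Gzmm turned positive without wild type replicate 1 (0.097), without knockout replicate 2 (0.053) or 3 (0.31), and with knockout replicate 1 alone (1.04). Its values with 1 library left out ran from -2.23 to 0.31, and those of Hdc, which turned positive (0.072) without wild type replicate 1, from -0.80 to 0.072. The cause was not tested. Whether the replicate numbers of the titles pair the libraries stayed undecided, as 3 libraries per group cannot settle it. Deviations from the group means of same-numbered libraries had r of 0.13, -0.02 and 0.07 across genes. Wild type replicates 1 and 3 correlated best with their own number, but not every library did. With the replicate number as a block, 0 members were called higher and 0 genes lower. Gzmm and Gzmk were the members with the fewest counts. Gzmm had 0 to 132 counts per library, and its knockout libraries ran from 0 to 5.18 CPM. The part of depth in that spread was not tested. Prf1, with 73 to 320 counts per library, is limited by the spread between wild type libraries, from 1.91 to 9.63 CPM.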
